A study of Mus musculus with 12 samples.

Results

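Motor neuron identity genes were followed in mouse spinal cord as a set of 10 symbols: Chat, Slc18a3, Slc5a7, Isl1, Isl2, Lhx3, Mnx1, Prph, Ret and Calca. Every probe set that the platform annotation gives to one of these symbols alone was taken. This gave 15 probe sets for 9 genes, out of 45101 probe sets and 18194 genes measured; Calca was not analysed here. The symbols follow what the genes are known to do, and no measured value enters the rule, but the set was chosen with earlier results of these data known.

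The study measured total RNA on 12 one-colour arrays, with 3 biological replicates in each of 4 groups: wild-type littermates and Olig2cre/DA-Cat mice (called mutant from here on), each sampled on day 4 and on day 15. Olig2cre drives Cre recombinase from the Olig2 gene. DA-Cat is a dominant-active form of β-catenin, which carries Wnt signals to the nucleus, and Cre switches it on. The mutant groups thus differ from wild type by both alleles at once, and no group with Cre alone was used here. The labels tag day as a developmental stage. Their shared protocol instead describes adults of 8 to 10 weeks under isoflurane and buprenorphine, with 0.5 μL of 1% lysolecithin injected at T12/T13 and tissue taken unlesioned or 14 days after the lesion. What the days count from, the strain, the sex and the number of animals per sample are not stated in the labels, so p-values measure the spread between these samples.

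The source label names ventrolateral white matter, while the titles name spinal cord. Snap25, a synaptic protein gene of all neurons, lay between 12.31 and 13.09 log2 on the 12 arrays, and 17 neuron genes had a mean between 10.87 and 11.12, against array medians of 6.14 to 6.19. Mog, a gene of mature myelin, lay between 5.10 and 11.75. The brightest probe set of Prph lay between 9.81 and 10.32, well over the array medians, and the Chat probe set between 5.25 and 5.78, under them. Which parts of the cord the samples held cannot be read from these levels, since no reference of grey or white matter was used here. The sodium channel gene Scn10a, which marks dorsal root ganglion sensory neurons, lay between 3.81 and 4.22, against a median of 3.08 for bacterial control probe sets. Skeletal muscle RNA differed between arrays: the muscle gene Acta1 lay between 6.42 and 13.17, with its highest value in mutant replicate 1 of day 15.

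Motor neurons of the spinal cord arise from the Olig2-expressing progenitor domain of the ventral neural tube, which later gives rise to oligodendrocyte precursors. In postmitotic motor neurons the LIM-homeodomain factors Isl1 and Lhx3, with Isl2 and the homeodomain factor Mnx1, set the cholinergic fate. Chat makes acetylcholine, Slc18a3 loads it into synaptic vesicles, and Slc5a7 takes choline back up at the terminal. Prph is an intermediate filament of neurons with peripheral axons, and Ret is the receptor tyrosine kinase for ligands of the GDNF family. Isl1, Prph and Ret are also made by sensory neurons outside the cord, and Isl1 and Ret by some interneurons of the cord. In bulk tissue, fewer cells of a type and less RNA per cell cannot be told apart.

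Upstream sequences from RefSeq, assembly GRCm38.p6, were set side by side for the LIM-homeodomain genes, because Isl1 and Lhx3 differed between days or genotypes in what follows while their relative Isl2 did not pass any test. Each run gives the 250 bases before an annotated start of the gene, 5′ to 3′ on the gene's strand, at chr13:116309689-116309938 (minus strand) for Isl1, chr9:55540899-55541148 (plus) for Isl2, chr2:26208250-26208499 (minus) for the first Lhx3 start and chr2:26206576-26206825 (minus) for the second. The runs of Isl2 and of the second Lhx3 start lie inside the annotated span of their gene, so these starts are internal ones. Capitals mark CCAAT boxes and the core of the cyclic AMP response element, CRE (TGACG, or CGTCA where it lies on the other strand), in Isl1 and Isl2, a repressor element 1 in the first Lhx3 sequence, and the E-box CATCTG in the second.
Isl1: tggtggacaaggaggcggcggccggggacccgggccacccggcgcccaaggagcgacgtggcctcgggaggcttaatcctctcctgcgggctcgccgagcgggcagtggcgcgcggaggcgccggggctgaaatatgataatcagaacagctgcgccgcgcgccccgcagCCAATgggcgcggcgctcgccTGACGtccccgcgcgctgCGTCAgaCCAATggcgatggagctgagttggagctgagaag
Isl2: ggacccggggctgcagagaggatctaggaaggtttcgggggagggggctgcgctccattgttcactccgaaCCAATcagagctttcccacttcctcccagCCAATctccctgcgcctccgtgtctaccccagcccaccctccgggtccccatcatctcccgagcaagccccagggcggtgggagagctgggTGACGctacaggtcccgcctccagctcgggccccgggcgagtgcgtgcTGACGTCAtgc
Lhx3, first start: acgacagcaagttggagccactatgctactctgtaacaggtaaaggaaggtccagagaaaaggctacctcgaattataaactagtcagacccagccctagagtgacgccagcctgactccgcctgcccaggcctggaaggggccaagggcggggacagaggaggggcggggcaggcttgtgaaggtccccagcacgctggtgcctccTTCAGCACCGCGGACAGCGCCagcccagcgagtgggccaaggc
Lhx3, second start: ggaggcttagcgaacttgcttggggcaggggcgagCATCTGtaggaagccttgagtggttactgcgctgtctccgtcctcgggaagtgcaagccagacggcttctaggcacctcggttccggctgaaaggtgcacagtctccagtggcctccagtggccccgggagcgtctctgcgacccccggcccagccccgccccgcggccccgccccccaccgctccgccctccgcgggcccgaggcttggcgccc

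Both Isl genes held CCAAT boxes together with CRE cores on both strands. In Isl1 the CCAAT boxes began 80 and 34 bases before the start and the CRE cores 59 and 41 bases before it. In Isl2 the CCAAT boxes began 179 and 150 bases before the start, with a CRE core at 59 and a pair at 11 and 8 that overlap each other. Of 32851 RefSeq promoters of this length, 33.8% held CCAAT and 17.8% held TGACG on either strand. The share that held both was not counted. Chat and Calca also held both, and the first Lhx3 sequence held a CRE core, not capitalised above, 148 bases before the start. The first Lhx3 sequence held the repressor element 1, the motif that the repressor REST binds, 43 bases before the start. It was the 1 promoter in the table with a match to the string searched (0.00304%). That string left few bases free, so other forms of the element were not counted. Its left part alone, TTCAGCACC, was in 0.301% of promoters. The string was chosen after the sequence had been seen, so its rarity is not a test. CATCTG was in 14.4% of promoters. CTTTGAA or CTTTGAT, the core that TCF and LEF factors bind downstream of β-catenin, was in 7.48% of promoters and in none of the 9 sequences of the measured genes that the table holds. The promoter of Calca, a member without a value here, held this core on the other strand, beginning 250 bases before the start. A match or its absence describes these letters only.

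Chat, choline acetyltransferase, was measured by 1 probe set. It read 5.41, 5.64 and 5.62 log2 in wild type at day 4 and 5.55, 5.55 and 5.78 in the mutant. At day 15 it read 5.49, 5.50 and 5.25 in wild type and 5.50, 5.74 and 5.43 in the mutant. All 4 groups overlapped with their neighbours in the order of means, and no group stood apart. The genotype difference was 0.07 at day 4 (SE 0.105, limma adjusted p = 0.737) and 0.14 at day 15 (adjusted p = 0.535), and its 95% interval at day 4 ran from −0.16 to 0.30.

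Slc18a3, the vesicular acetylcholine transporter, lies within the span of Chat in the genome and is read by its own probe set. It read 8.17, 8.11 and 8.22 in wild type at day 4 and 8.43, 8.37 and 8.42 in the mutant at day 4. The highest wild-type array was below the lowest mutant array. The difference of 0.24 (SE 0.139, 95% interval −0.06 to 0.54) did not pass the test across all genes (limma adjusted p = 0.353), whose SE rests on the spread in all 4 groups. At day 15 the gene read 8.24, 7.83 and 7.90 in wild type and 8.58, 7.95 and 8.35 in the mutant, with the groups overlapping and replicate 1 the highest in both. The difference was 0.30 (SE 0.139, unadjusted p = 0.0489, limma adjusted p = 0.292). Without mutant replicate 2, the lowest mutant array at that day, it was 0.48 (adjusted p = 0.0362), and without mutant replicate 1, the highest, it was 0.16 (adjusted p = 0.622).

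Slc5a7, the high-affinity choline transporter, ranged from 5.66 to 6.41 over the 12 arrays and did not pass any contrast. Its highest array was mutant replicate 1 of day 15, at 6.41, and the other 11 lay at or under 6.01. The genotype difference was −0.09 at day 4 and 0.08 at day 15 (limma adjusted p = 0.777 and 0.835). The 3 cholinergic genes thus gave no called change by genotype or by day. Their genotype differences, −0.09 to 0.24 at day 4 and 0.08 to 0.30 at day 15, were set against an SE of 0.105 to 0.154.

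Lhx3, a LIM-homeodomain factor of motor neurons and V2a interneurons, was higher in the mutant at day 4. Its brighter probe set, near the array medians of 6.14 to 6.19, read 6.13, 6.15 and 6.09 in wild type and 6.40, 6.45 and 6.40 in the mutant at day 4. The 2 groups did not overlap and each was tight, with an SD of 0.03 in both. The difference was 0.29 (SE 0.053), a 1.22-fold higher signal (limma adjusted p = 0.0114). Without mutant replicate 2 at day 4 it was 0.27 and no longer passed (adjusted p = 0.0671). At day 15 Lhx3 read 5.91, 5.85 and 5.79 in wild type and 5.84, 5.87 and 5.88 in the mutant, and the groups overlapped. The day 15 difference was 0.01 (SE 0.053, adjusted p = 0.928), with an interval of −0.10 to 0.13 that leaves out the size seen at day 4. The test of the difference between both days gave −0.28 (SE 0.075, unadjusted p = 0.00318), which did not pass over all genes (limma adjusted p = 0.214).

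The second Lhx3 probe set lay between 4.33 and 4.73, near the lower quartile of all probe sets (4.52). It differed by 0.08 between genotypes at day 4 (SE 0.086, limma adjusted p = 0.675 over all probe sets). Which of the Lhx3 transcripts each probe set reads is not stated here. With the mean of both probe sets as the Lhx3 value, the day 4 difference was 0.19 (adjusted p = 0.0901).

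Isl1, the LIM-homeodomain factor shared by motor and sensory neurons, had the highest genotype difference of the 9 genes at day 4. It read 7.80, 7.83 and 7.97 in wild type and 8.09, 8.23 and 8.39 in the mutant at day 4. Every mutant array was above every wild-type array, but the mutant arrays spread over 0.30 log2. The difference of 0.37 (SE 0.113, 95% interval 0.12 to 0.62) did not pass over all genes (limma adjusted p = 0.099). It passed without mutant replicate 1 of day 15, an array that adds only to the spread here (0.37, adjusted p = 0.0352). A second Isl1 probe set read 6.87, 6.95 and 7.18 in wild type and 7.34, 7.36 and 7.65 in the mutant, again without overlap. Its difference was 0.45 (SE 0.116, limma adjusted p = 0.0866 over all probe sets).

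At day 15 Isl1 read 6.95, 6.80 and 6.81 in wild type and 7.26, 6.83 and 6.86 in the mutant. Mutant replicate 1 was the highest of the 6 arrays, and the other mutant arrays lay inside the wild-type range. The difference was 0.13 (SE 0.113, limma adjusted p = 0.601), and without that replicate it was −0.01. The genotype effects at the 2 days differed by −0.24 (SE 0.160, adjusted p = 0.658).

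Isl2, the close relative of Isl1, ranged from 5.90 to 6.26 over the 12 arrays with all groups overlapping. The genotype difference was −0.04 at day 4 (SE 0.089, limma adjusted p = 0.84) and 0.01 at day 15 (adjusted p = 0.972). Mnx1, the homeodomain factor also known as Hb9, was dim, between 4.55 and 5.26. Its difference was 0.06 at day 4 and 0.24 at day 15 (SE 0.132, adjusted p = 0.825 and 0.381), and its groups overlapped at both days.

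Prph, peripherin, read between 9.81 and 10.32 on its brightest probe set. The genotype difference was 0.18 at day 4 (SE 0.126, limma adjusted p = 0.429) and 0.11 at day 15 (adjusted p = 0.724), with overlapping groups. The other 3 Prph probe sets did not move as one. One of them read 5.65, 5.36 and 5.50 in wild type and 5.32, 5.21 and 4.99 in the mutant at day 4. There the mutant arrays were all the lower ones, opposite to the brightest probe set (difference −0.33, limma adjusted p = 0.134 over all probe sets). With the mean of all 4 probe sets, the day 4 difference of Prph was −0.04.

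Ret, the GDNF family receptor, read 9.96, 9.76 and 9.82 in wild type and 9.95, 9.94 and 10.00 in the mutant at day 4, with overlapping groups. At day 15 it read 9.25, 9.22 and 9.32 in wild type and 9.42, 9.27 and 9.47 in the mutant, again overlapping. The difference was 0.12 on both days (SE 0.071, limma adjusted p = 0.367 and 0.413). A second Ret probe set differed by 0.21 at day 4 (SE 0.082, adjusted p = 0.247 over all probe sets) and 0.10 at day 15.

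**Figure D1:**
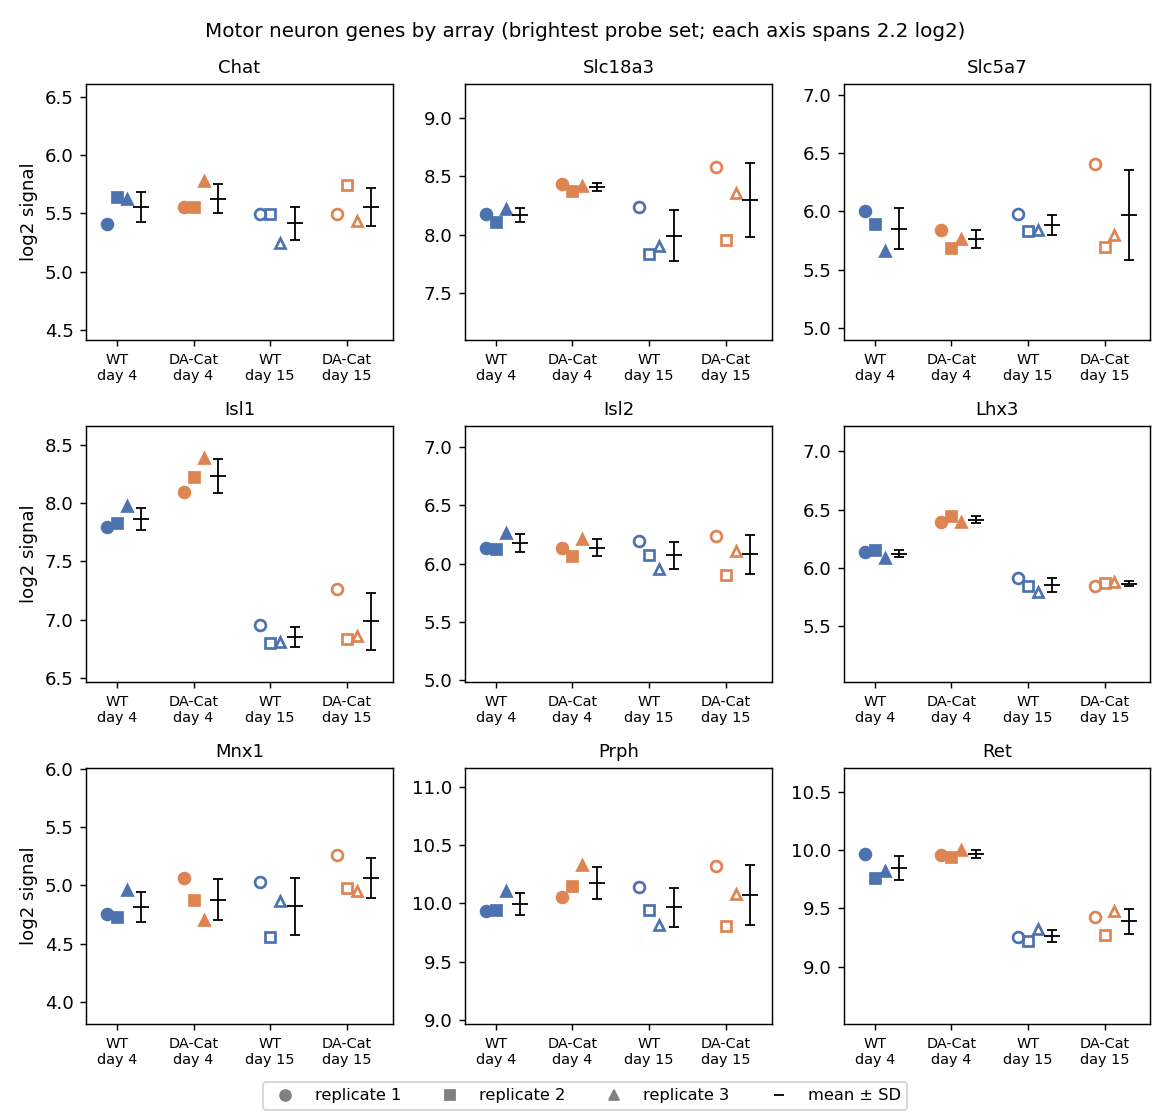
Log2 signal of the 9 measured genes (brightest probe set) on each of the 12 arrays, by group, with mean ± SD of 3 arrays; every vertical axis spans the same range. Isl1, Lhx3 and Ret are lower at day 15 in both genotypes, Lhx3 is higher in the mutant at day 4, and the other 6 genes passed no test. DA-Cat marks the mutant groups.

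By genotype, 1 of the 9 genes was called higher at day 4 and 0 lower, against 3.12% of all 18194 genes called in either direction (1.3% higher, 1.81% lower). At day 15, 0 of 9 were called in either direction, against 2.93% of all genes (0.616% higher, 2.31% lower), with 1 of the 9 at an unadjusted p under 0.05 in limma. Over all genes, 3746 of 18194 had an unadjusted p under 0.05 in limma at day 4 and 3080 at day 15. The differences were positive for 7 of 9 genes at day 4 and 9 of 9 at day 15, against 58.1% and 55.3% of all genes, although Isl2 and Lhx3 turned just below 0 at day 15 when arrays were quantile normalized or centred. The median difference of the 9 genes was 0.12 on both days, and that of all genes 0.03 and 0.02. At day 4, 3 of 9 genes (Slc18a3, Isl1 and Lhx3) had every mutant array above every wild-type array, against 18.8% of all genes. At day 15 this held for 0 of 9, against 10.6% of all genes. Of the difference between the genotype effects at both days, 0 of 9 were called in limma (0.352% of all genes, 0.192% higher and 0.159% lower). An unadjusted p under 0.05 was reached by 1 of the 9, against 1843 of 18194 genes. That difference ranged from −0.28 for Lhx3 to 0.18 for Mnx1. The genotype and day contrasts share groups, so the values above are given side by side.

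Counted by probe set, 1 of 15 was called higher at day 4, against 0.415% of all probe sets, and 0 of 15 at day 15, against 0.257% (limma, with 1 at an unadjusted p under 0.05). Between days 4 of 15 were lower in wild type and 5 of 15 in the mutant, against 16.5% and 18.7%.

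By contrast, 15 of 16 measured genes of myelin and mature oligodendrocytes, the other lineage of the Olig2 domain, were called lower in the mutant at day 4, with a median of −2.01, and 12 of 16 at day 15, with a median of −0.70. Among the brightest probe sets of the 9 motor neuron genes, no difference at either day was over 0.37 in size, and the second Isl1 probe set gave 0.45 at day 4.

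**Figure D2:**
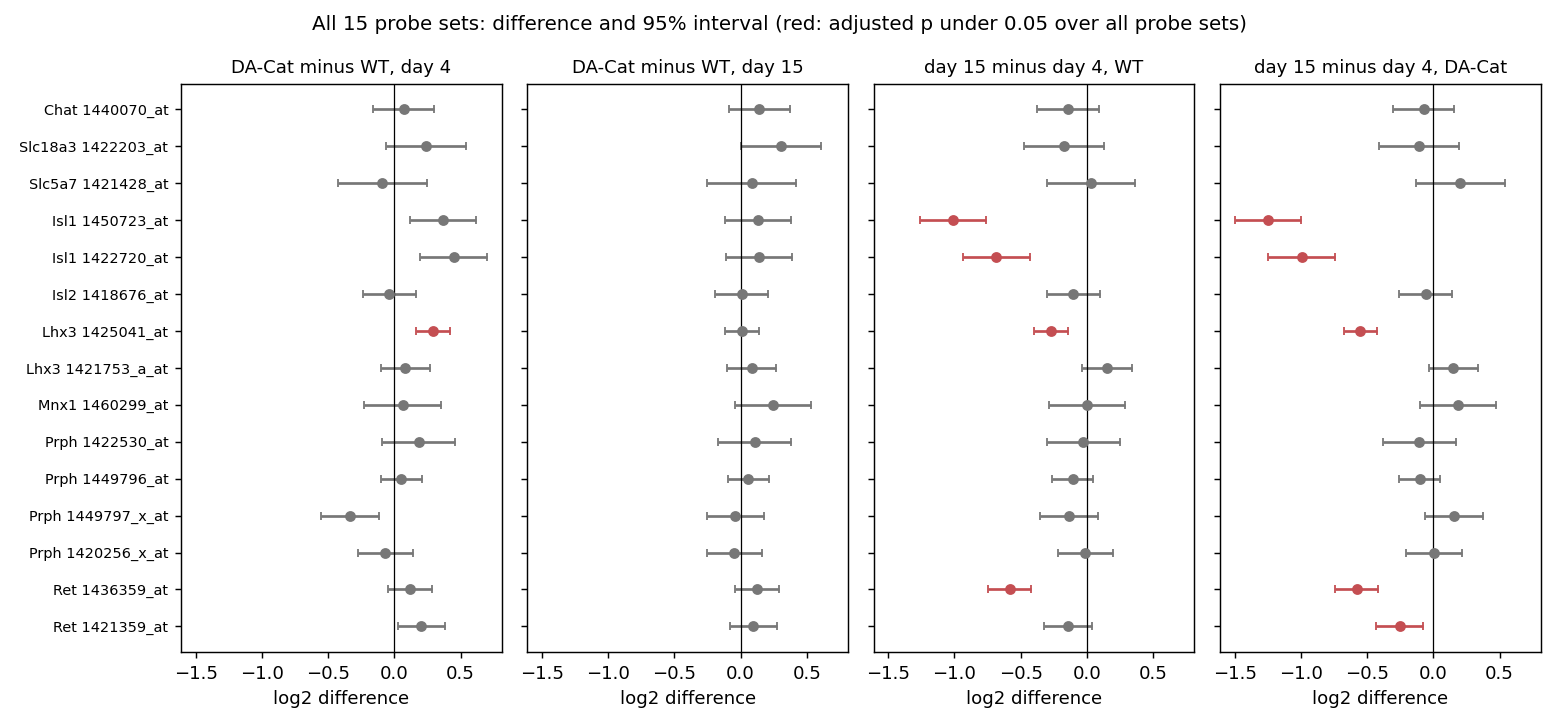
Log2 difference with 95% interval for all 15 probe sets in each genotype and day contrast; red marks an adjusted p under 0.05 over all probe sets. By genotype 1 probe set of Lhx3 is red at day 4 and 0 are red at day 15, while the day contrasts have 4 red in wild type and 5 in the mutant, all to the left of 0.

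Between day 4 and day 15, 3 of the 9 genes fell in wild type and 3 in the mutant, and they were Isl1, Lhx3 and Ret in both. Among all genes 44.9% were called in wild type (21.3% higher, 23.6% lower) and 48.1% in the mutant (21.8% higher, 26.3% lower), so the share of members that fell was near the background. Isl1 fell by 1.01 log2 in wild type (SE 0.113, 0.495-fold, limma adjusted p = 1.34e-05) and by 1.25 in the mutant (0.42-fold, adjusted p = 1.84e-06). Every day 4 array was above every day 15 array in both genotypes, as held for 28.1% of all genes in wild type and 30.1% in the mutant. Its second probe set fell by 0.68 and 0.99 (adjusted p = 0.000505 and 2.07e-05 over all probe sets).

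Ret fell by 0.58 in each genotype (SE 0.071, limma adjusted p = 2.83e-05 in wild type and 2.61e-05 in the mutant), again with no overlap. Its second probe set gave −0.14 in wild type, which was not called (adjusted p = 0.218 over all probe sets), and fell by 0.25 in the mutant (adjusted p = 0.0291). Lhx3 fell by 0.27 in wild type (SE 0.053, adjusted p = 0.00104) and by 0.55 in the mutant (adjusted p = 3.2e-06), from the higher day 4 level of the mutant to the same day 15 level. The dim second Lhx3 probe set did not show this, with differences of 0.15 in each genotype (adjusted p = 0.211 and 0.199), and with the mean of both the fall in wild type was 0.06 and not called (adjusted p = 0.415).

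The other 6 genes were not called between days in either genotype. In wild type Slc18a3 differed by −0.18, Chat by −0.14, Isl2 by −0.10, Prph by −0.03, Mnx1 by 0.00 and Slc5a7 by 0.03, with limma adjusted p between 0.307 and 0.99. In the mutant they lay between −0.11 for Slc18a3 and Prph and 0.20 for Slc5a7 (adjusted p between 0.28 and 0.656). The cholinergic genes, peripherin, Isl2 and Mnx1 were thus uncalled where Isl1, Lhx3 and Ret fell.

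In the order of the 4 groups, Isl1 and Lhx3 were highest in the mutant at day 4, then wild type at day 4, then both day 15 groups, which overlapped. Ret had both day 4 groups above both day 15 groups, with the genotypes overlapping at each day. For Chat, Slc18a3, Slc5a7, Isl2, Mnx1 and Prph, no neighbouring groups in the order of means were apart.

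**Figure D3:**
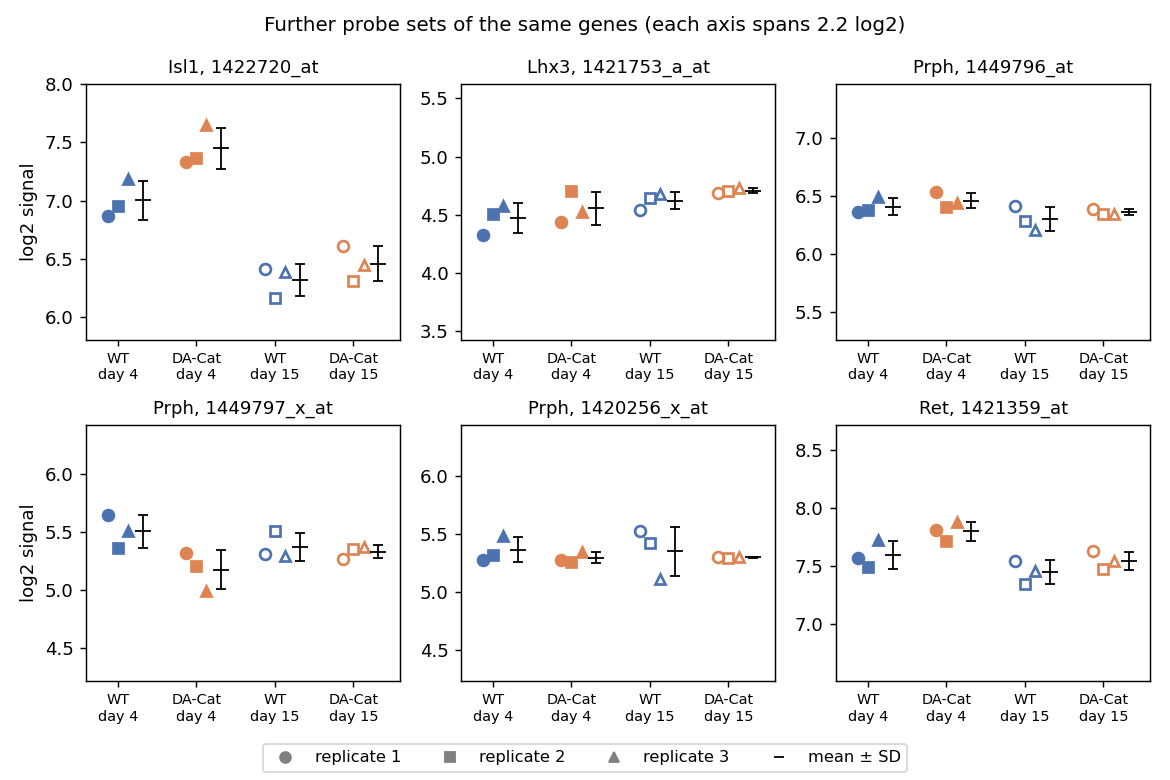
Log2 signal of the 6 further probe sets of Isl1, Lhx3, Prph and Ret on the 12 arrays, by group, with mean ± SD of 3 arrays. The second Isl1 probe set has the same order of groups as the first, whereas the second Lhx3 probe set stays between 4.33 and 4.73 in all groups.

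Genes that work beside the 9 were taken from lists of known function. Of 21 measured transcription factors of motor neurons and their progenitors, Nkx6-1, a homeodomain factor of the ventral progenitors, was higher in the mutant at day 4. Its level was 6.65 ± 0.03 (SD, n = 3) in wild type and 7.39 ± 0.08 in the mutant, a difference of 0.74 (limma adjusted p = 0.00824), and at day 15 the difference was 0.30 (adjusted p = 0.267). The other 20 were not called at day 4 and 0 of 21 at day 15. An unadjusted p under 0.05 in limma was reached by 7 of 21 on each day, against 3746 of 18194 genes at day 4 and 3080 at day 15. Counts by genotype at that level in the lists that follow stand against these same numbers. The median of the 21 was 0.16 at day 4.

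Between days 12 of the 21 factors fell in wild type and 11 in the mutant, with medians of −0.67 and −0.69, against 23.6% and 26.3% of all genes lower. The falls in the lists that follow stand against these same shares, and the rises against 21.3% and 21.8%. Calls by genotype in these lists stand against 1.3% of all genes higher and 1.81% lower at day 4, and 0.616% and 2.31% at day 15. Lhx1, a LIM factor of lateral motor neurons and interneurons, fell by 1.95 and 2.06. Ebf3 fell by 1.41 and 1.49, and Pbx3 by 1.07 and 1.41. Bcl6, a transcriptional repressor, was the 1 factor that rose, by 1.14 and 1.25.

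Of 14 measured genes of the cholinergic synapse, Slc44a1, a choline transporter-like protein, and Prima1, the membrane anchor of acetylcholinesterase, were lower in the mutant on both days. Slc44a1 differed by −1.09 at day 4 (limma adjusted p = 5.72e-06) and −0.49 at day 15 (adjusted p = 0.00568). Prima1 differed by −0.91 and −0.50. These 2 genes followed the myelin genes in direction: they also rose between days, Slc44a1 by 2.00 in wild type and 2.60 in the mutant, and Prima1 by 1.00 and 1.40. The mean of 16 myelin genes rose over the same days from 9.85 to 10.09 in wild type at day 4 to 12.02 to 12.06 at day 15, and its part in these values was not tested.

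Of 6 measured nicotinic receptor subunits in this list, 5 fell between days in wild type and 4 in the mutant. Chrna3 fell by 1.02 in wild type and 1.29 in the mutant, and Chrnb2 fell by 0.42 in wild type. Chrnb4 was not called in either genotype, at 0.02 and −0.11, nor Chrna7 in the mutant, at −0.10. In all, 4 of the 14 rose and 5 fell in wild type, and 4 rose and 4 fell in the mutant. The median difference by genotype was 0.01 at day 4 and −0.05 at day 15.

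Of 13 neurotrophic factor receptors, 0 were called by genotype in limma on either day, with 6 at an unadjusted p under 0.05 at day 4 and 3 at day 15. Between days 6 fell in each genotype and 2 rose. Gfra2, a co-receptor of Ret, fell by 1.48 in wild type and 1.60 in the mutant, and Ngfr, the low-affinity neurotrophin receptor, by 1.31 and 1.38. Of 13 neurofilament and axonal cytoskeleton genes, Gap43, a protein of growing axons, and Tubb3, a neuronal tubulin, were higher in the mutant at day 4. They differed by 0.27 and 0.31 (limma adjusted p = 0.0466 and 0.0482), and at day 15 by 0.23 and 0.18 (adjusted p = 0.0931 and 0.257). Both day 4 calls were lost without any 1 of the 6 day 4 arrays (Gap43 0.25 to 0.29, Tubb3 0.24 to 0.35) and without wild-type replicate 1 or 2 of day 15, and that of Tubb3 also without mutant replicate 3 of day 15. Between days Gap43 fell by 1.97 and 2.02, while Nefh, the heavy neurofilament of mature axons, rose by 1.10 and 1.37.

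Of 18 genes of motor pools and motor neuron subtypes, 10 fell between days in wild type and 9 in the mutant. Chodl, which marks fast motor neurons, fell by 0.87 and 0.86. Agrn, the organiser of the neuromuscular junction, fell by 1.04 and 1.21. Plekhg1 was the 1 gene of this list called by genotype, with −0.65 at day 4 and −0.67 at day 15, and it rose between days by 0.98 in wild type and 0.96 in the mutant. Of 4 genes of the ventral and dorsal interneurons that border on or share the cholinergic fate, Lbx1 fell between days by 1.20 and 1.27, and 0 were called by genotype in limma, with 1 at an unadjusted p under 0.05 on each day.

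**Figure D4:**
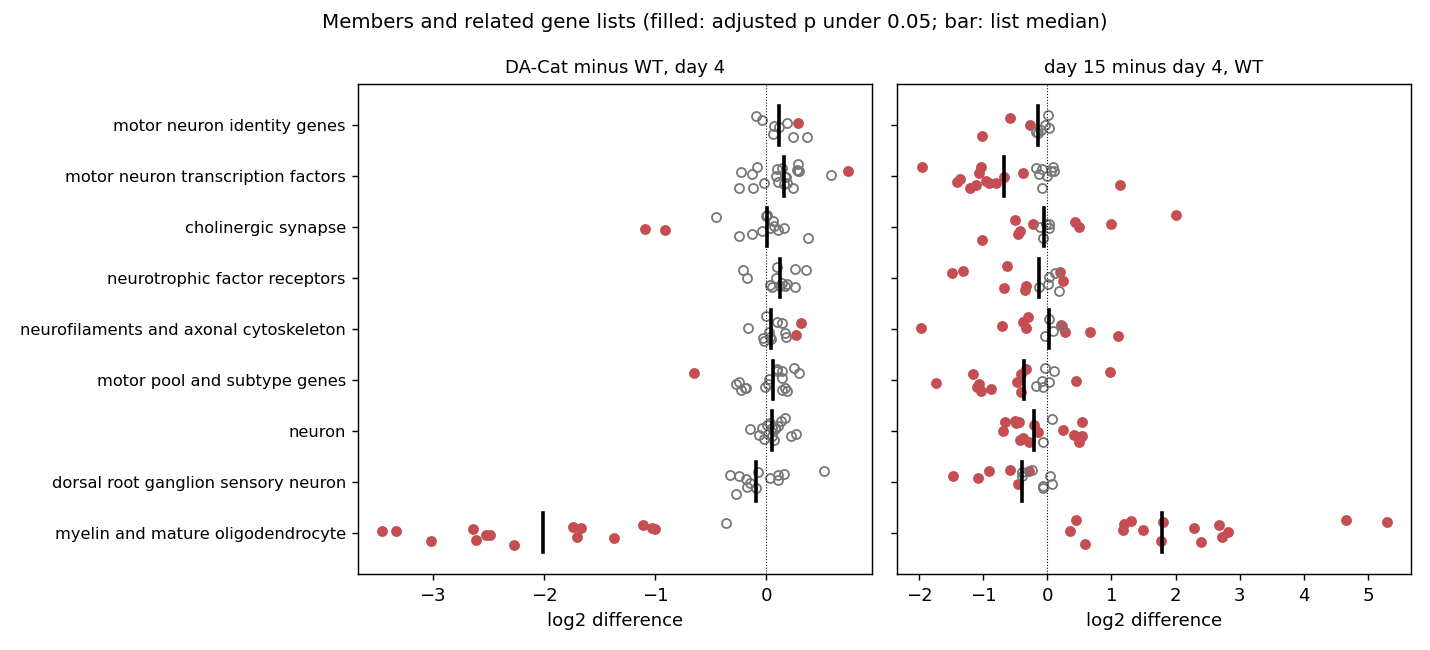
Log2 differences of the 9 motor neuron identity genes and of related gene lists, between genotypes at day 4 and between days in wild type. Points are genes, filled where the adjusted p was under 0.05, and the bar is the list's median. The median by genotype of the motor neuron genes is 0.12 at day 4, against −2.01 for myelin genes. The transcription factors have a median of −0.67 between days in wild type.

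Levels of other cell types moved with some of these values. Of 13 measured sensory neuron markers of dorsal root ganglia, 6 fell between days in wild type and 4 in the mutant, and their mean went from 6.02 to 6.20 over the day 4 arrays to 5.66 to 5.81 over the day 15 arrays. None of the 13 was called by genotype in limma, with 5 at an unadjusted p under 0.05 at day 4 and 1 at day 15. With that mean as a covariate, which itself separates the days, 0 of the 9 motor neuron genes were called between days in wild type: Isl1 was −0.83 (adjusted p = 0.179), Ret −0.55 (0.164) and Lhx3 −0.40 (0.154). Genes of this list were not checked for expression by neurons of the cord, so its mean need not follow ganglion RNA alone. The part of sensory neuron RNA in the falls was not tested further. The day 4 difference of Lhx3 was 0.28 with that covariate (adjusted p = 0.0261), 0.29 with the muscle level (adjusted p = 0.0207) and 0.30 with the neuron level (adjusted p = 0.0331).

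Glial and myelinating cell levels also moved with genotype at day 4 and with day. Of 9 measured Schwann cell genes, of which Gjb1 and Sox10 are also in oligodendrocyte lists here, 3 were called lower in the mutant at day 4, and their mean was 7.51 to 7.86 in wild type and 7.09 to 7.32 in the mutant. Of 10 oligodendrocyte precursor genes 6 were called lower at day 4, with means of 9.98 to 10.04 in wild type and 9.33 to 9.40 in the mutant. Of 10 astrocyte genes 2 were called lower at day 4. Among all genes 1.81% were called lower at that day. Between days 5 of 9 Schwann cell genes rose in each genotype. Of 9 microglia and macrophage genes, 9 rose in wild type and 7 in the mutant, with means of 7.46 to 7.68 over the day 4 arrays and 8.03 to 8.33 over the day 15 arrays. The part of these cell types in the values of Lhx3, Isl1 and Ret was not tested.

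Of 17 measured neuron genes, 0 were called by genotype at day 4 in limma, with 2 at an unadjusted p under 0.05, and 1 at day 15, the synaptic vesicle gene Syp, by 0.29 (adjusted p = 0.0268). The mean of the 17 was 10.87 to 10.89 in wild type and 10.92 to 11.08 in the mutant at day 15, without overlap. With that mean as a covariate, which itself separates the genotypes at day 15, the Slc18a3 difference went from 0.30 (SE 0.139) to −0.02 (SE 0.173, limma adjusted p = 0.979). The Ret difference went from 0.12 to 0.00 (adjusted p = 0.995). Calls by genotype over all genes at day 15 went from 112 higher and 421 lower to 5 and 6. The part of neuron RNA in these differences was not tested further.

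The 18 skeletal muscle genes varied most between arrays. Their mean was 10.15 in mutant replicate 1 of day 15, and lay between 5.21 and 8.17 on the other 11 arrays. That replicate was also the highest of its group for Slc18a3, Slc5a7, Isl1, Isl2, Mnx1 and Prph. Muscle genes were not called by genotype on either day in limma (0 of 18, with 0 at an unadjusted p under 0.05). They were not level between genotypes, however. The median difference of the 18 genes was 0.76 at day 4, with 14 positive, and 1.92 at day 15, with 17 positive. The part of muscle RNA in the day 15 values was not tested beyond the covariate, with which the Slc18a3 difference was 0.18 (adjusted p = 0.605) and that of Isl1 0.03 (adjusted p = 0.932).

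With the group means removed, several members deviated together from array to array. Pearson's r over the 12 arrays was 0.95 for Isl2 and Prph, 0.89 for Isl1 and Prph, 0.87 for Slc18a3 and Isl2 and 0.85 for Slc18a3 and Prph. Chat did not go with them, at −0.31 with Slc18a3 and −0.73 with Ret, and Lhx3 was at 0.13 with Slc18a3 and −0.14 with Isl1. These are descriptions: values of 1 array share its dissection, RNA and normalization. The same deviations correlated with the muscle level at 0.62 for Isl1, 0.59 for Slc18a3 and 0.57 for Prph, and with the neuron level at 0.64 for Slc18a3 and −0.61 for Chat.

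**Figure D5:**
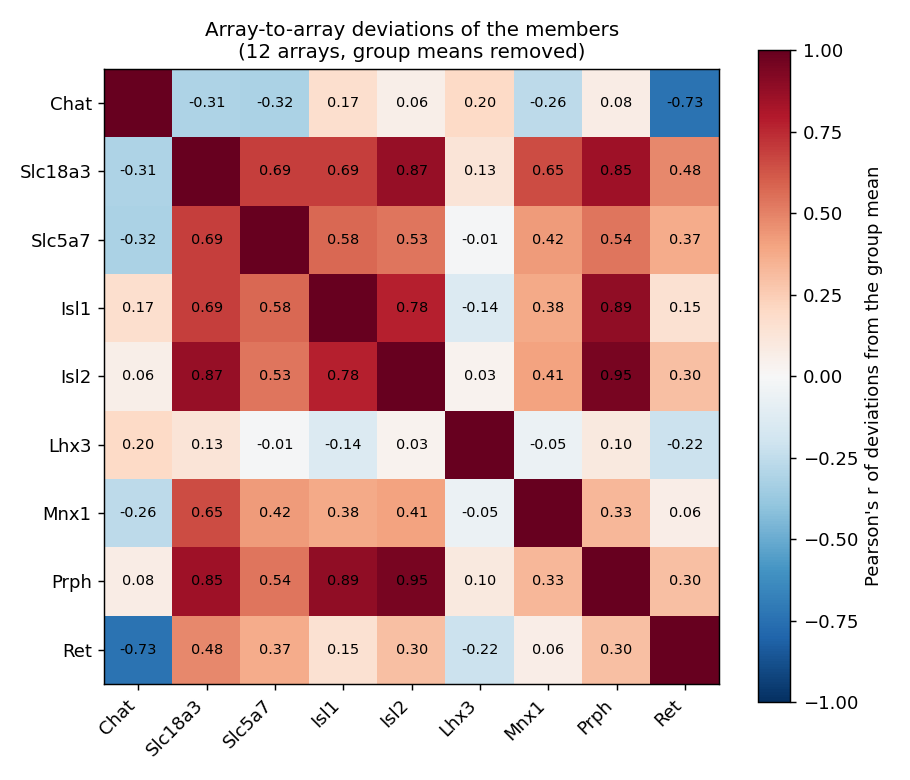
Pearson's r between the deviations of the 9 genes from their group means over the 12 arrays. Slc18a3, Isl1, Isl2 and Prph form a block of values of 0.69 to 0.95, while Chat and Lhx3 stay outside it.

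Over the levels of all 12 arrays, group differences included, Isl1 went with Ret at 0.96 and with Lhx3 at 0.94. Among 9093 genes at or above the median level, those most like Chat over the 12 arrays were Mtg2 (0.80), Mettl1 (0.76), Phka2 (0.75), Cpne1 (0.75) and Pmf1 (0.75). With group means removed they were Pnn (0.92), Pepd (0.90), Triobp (0.89), Elovl5 (0.88) and Pfkfb4 (0.86).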

How the data were processed

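The deposited table holds 1 log2 signal per probe set and array, made by the authors; background correction and normalization are not given in the sources used here. The log2 scale was inferred from the range of values, and no batch or scan date was given in them. The number of arrays limits the precision. Of 45101 probe sets, 34958 had 1 symbol in the platform annotation, 932 several and 9211 none; 34754 were matched to RefSeq by Entrez identifier and 0 symbols differed.

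A gene was represented by its brightest probe set on average, giving 18194 genes. The 4 group means were fitted to all 12 arrays with limma 3.58.1 (lmFit, contrasts.fit, eBayes; R 4.3.3), with 8 residual and 3.96 prior degrees of freedom. P-values were two-sided and adjusted by Benjamini-Hochberg over all genes, or over all probe sets where stated, with a threshold of 0.05. Differences are Olig2cre/DA-Cat minus wild type, or day 15 minus day 4. The fit was tested on simulated data. Of 217 entries in 15 gene lists, 194 were named; Calca was not analysed here.

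The members and lists were chosen with earlier results of these data known. Named were all members and their probe sets, up to 4 genes per list with the smallest p among those called in a contrast, the 5 genes most like Chat by each measure, and the tissue genes Mog, Snap25, Scn10a and Acta1; a further tissue gene is not reported here. Bcl6, Chrnb4 and Chrna7 were outside that rule and chosen after their values were seen. Alternatives changed the scaling, probe set choice, dim-gene filter, variance prior, array weights, samples fitted, block, covariates and arrays left out.

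Same-numbered replicates of the genotypes were checked for pairing. Their deviations correlated at 0.26, 0.30 and 0.03 at day 4 and 0.17, 0.18 and 0.02 at day 15. Differently numbered replicates lay between −0.31 and 0.05 at day 4 and between −0.22 and 0.08 at day 15. Replicates 1 and 2 thus went best with their own number on both days, and replicate 3 did not. Whether the numbers pair the samples was not settled. The main fit used no pairing, and a replicate block was fitted as an alternative.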

Additional observations from a re-analysis of the deposited data

Results flagged for a closer look

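Slc44a1, the choline transporter-like gene of the cholinergic synapse list, had genotype effects that differed between the days: the day 4 effect was −1.09 and the day 15 effect −0.49, which differ by 0.60 (SE 0.112, limma adjusted p = 0.0497). All 3 mutant arrays lay below the wild-type arrays on both days. Among all genes 0.352% were called in this contrast (0.192% higher, 0.159% lower). Of 16 measured myelin genes 11 were called higher in it, with a median of 1.60, and their part in the Slc44a1 value was not tested. The Slc44a1 call was lost in 18 of 24 alternatives, among them 11 of the 12 that left out 1 array, while the direction was kept in each.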

How the results depend on the processing

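Over 25 alternatives, 919 values of the motor neuron genes were recomputed: 860 kept direction and side of the threshold, 7 lost the call, 4 gained it and 48 turned direction, 0 of these from a called value. Isl1, Lhx3 and Ret fell between days in Olig2cre/DA-Cat under each alternative that gave them a value but 1, Ret with the sensory neuron covariate (−0.55, adjusted p = 0.0548). In wild type the call was lost in 1 of 25 alternatives for Isl1, 1 of 25 for Ret and 2 of 24 for Lhx3.

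The count of genes higher at day 4, 1 as reported, was 2 with array weights, where Isl1 joined (0.41, adjusted p = 0.018), and 0 with the mean of all probe sets; leaving out 1 array gave 0 to 2. At day 15 leaving out 1 array gave 0 to 1. With the sensory neuron covariate the count lower between days in wild type was 0. Without the dimmest 50% of genes Isl1 also passed at day 4 (adjusted p = 0.0485); dim members then had no value. A replicate block, whose numbers may or may not pair the samples, left all member counts as reported (Lhx3 at day 4 0.29, adjusted p = 0.0204). It ended the day 4 call of Tubb3 (0.31, adjusted p = 0.0625).

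Uncalled values turned as follows. With the neuron covariate at day 4, Mnx1 was −0.0085; at day 15 Isl2 was −0.155, Prph −0.073, Slc18a3 −0.025 and Slc5a7 −0.31; between days in wild type Isl2 was 0.039, Prph 0.13 and Slc18a3 0.11. With the mean of all probe sets Prph at day 4 was −0.041. At day 15 Isl2 and Lhx3 were −0.0157 and −0.00956 under quantile normalization and −0.0147 and −0.00963 with centred arrays. With array weights Isl2 at day 15 was −0.0059 and Prph between days in wild type 0.024. With the muscle covariate at day 15 Isl2 was −0.040 and Slc5a7 −0.035. With the sensory neuron covariate Isl2 at day 15 was −0.027; between days in wild type Isl2, Prph and Slc18a3 were 0.16, 0.13 and 0.29, and in Olig2cre/DA-Cat 0.15, 0.019 and 0.25.

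Leaving out 1 array gave these ranges across 0. At day 4 Chat had −0.0030 to 0.11, Isl2 −0.078 to 0.0046 and Mnx1 −0.029 to 0.15. At day 15 Isl1 had −0.0075 to 0.21, Isl2 −0.067 to 0.097, Lhx3 −0.015 to 0.045, Prph −0.019 to 0.24 and Slc5a7 −0.14 to 0.22. Between days in wild type Mnx1 had −0.10 to 0.13, Prph −0.12 to 0.048 and Slc5a7 −0.065 to 0.11. In Olig2cre/DA-Cat Chat had −0.16 to 0.0027, Isl2 −0.13 to 0.033, Prph −0.23 to 0.026, Slc18a3 −0.25 to 0.062 and Slc5a7 −0.016 to 0.34.

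Over all genes the calls by genotype at day 4, 237 higher and 330 lower, were 125 and 382 after quantile normalization, 1327 and 837 with array weights, 618 and 391 without the dimmest 50%, and at day 15, 112 and 421, were 5 and 6 with the neuron covariate. Slc44a1 lost its call in 18 of 24 alternatives. Causes were not tested. The files used hold no detection call, so how far each probe set lies over its own background is unknown.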
